A study of Mus musculus with 15 samples.

Results

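The BCL2 family genes Bcl2, Bcl2l1, Bcl2l2, Mcl1, Bax, Bak1, Bid, Bad and Bcl2l11 were followed in RNA-seq of mouse RPE/choroid complex, tissue that joins the pigmented support layer of the photoreceptors (RPE) to its blood supply, the choroid. All 9 were found by symbol among the 40481 genes of the deposited count table, and all 9 passed the filter on low counts over the 15 libraries, as did 17991 genes in all. The INK-ATTAC group held 8 libraries from mice with floxed Abca1 and Abcg1 alleles, LysM-Cre and the INK-ATTAC transgene, given AP20187 into the peritoneum. The control group held 7 libraries from mice with the same floxed alleles and LysM-Cre, without the transgene, also given AP20187. Lyz2 drives LysM-Cre in macrophages and other myeloid cells, so the floxed sterol transporters are targeted there. In INK-ATTAC the p16Ink4a promoter drives an FKBP and caspase 8 fusion, and AP20187 pairs the fusion proteins, which starts apoptosis in cells where that promoter is active. The series text gives injections on alternate days over 3 months for the transgenic mice. Age, sex and the number of animals behind each library are not stated in the labels, so p-values measure the spread between these libraries.

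The BCL2 family decides whether the outer mitochondrial membrane stays closed. Bcl2, Bcl-xL (from Bcl2l1), Bcl-w (from Bcl2l2) and Mcl1 are survival proteins that hold the effectors Bax and Bak (from Bak1) in check, and once freed the effectors form pores that release cytochrome c. BH3-only proteins sense damage and tip that balance: Bid is cut and activated by caspase 8, Bad responds to growth factor signalling, and Bim (from Bcl2l11) responds to loss of survival signals. Caspase 8 is also the active part of the transgene, and survival proteins of this family are the targets of several drugs that kill senescent cells.

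All 9 members carry the BH3 segment through which the proteins bind each other, and this shared stretch is shown for each because it is what the rule, a list of names, did not use. The windows below are the coding strand of the principal GENCODE transcript (release M21, GRCm38), 30 bases each, in the reading frame. Capitals mark the codons of the core residues: leucine (methionine in Bcl2l2), then after a gap of 3 codons glycine (serine in Bad), and the aspartate that follows it.
Bcl2 (chr1:106712578-106712607, minus strand): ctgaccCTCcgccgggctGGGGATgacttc
Bcl2l1 (chr2:152829700-152829729, minus strand): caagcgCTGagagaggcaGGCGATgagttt
Bcl2l2 (chr14:54884511-54884540, plus strand): caagccATGcgggctgctGGAGACgagttt
Mcl1 (chr3:95659430-95659459, plus strand): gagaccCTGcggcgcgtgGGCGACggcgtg
Bax (chr7:45466000-45466029, minus strand): gagtgtCTCcggcgaattGGAGATgaactg
Bak1 (chr17:27022534-27022563, minus strand): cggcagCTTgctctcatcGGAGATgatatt
Bid (chr6:120897292-120897321, minus strand): agacatCTCgcccaaataGGCGATgagatg
Bad (chr19:6950786-6950815, plus strand): cgtgagCTCcgaaggatgAGCGATgagttt
Bcl2l11 (chr2:128147144-128147173, plus strand): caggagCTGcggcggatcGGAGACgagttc
The strict pattern of leucine, 3 codons, glycine and aspartate occurred once in each of 7 coding sequences, and Bcl2l2 and Bad each gave 1 match when methionine and serine were allowed. Each window lay within 1 coding exon. The first capital codon lay at 23.8% of the coding length in Bcl2l2 and at 76.5% in Bcl2l11, the extremes of the 9.

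Total counts per library ran from 47954634 to 65065950 in INK-ATTAC libraries and from 39121503 to 59974025 in controls. The 11 RPE markers were all detected, and their summed level ranged from 71804 to 97267 CPM in INK-ATTAC libraries and from 65016 to 86694 CPM in controls (CPM, counts scaled to TMM library size). Neighbouring tissue varied more. The 10 skeletal muscle markers summed to between 715 and 3958 CPM in INK-ATTAC libraries and between 296 and 2752 CPM in controls. All 10 had a higher fitted level in INK-ATTAC libraries. The part of muscle in the values of Bcl2 and Mcl1 below was read only through a covariate and correlations across libraries. The 14 lens markers summed to between 22.3 and 4353 CPM in INK-ATTAC libraries and between 21.5 and 893 CPM in controls. All 13 tested lens markers had a higher fitted level in INK-ATTAC libraries, with a median log2 fold change of 2.66. Of these, 9 had an unadjusted edgeR p under 0.05. The part of lens was not tested beyond a covariate. Cdkn2a, which encodes p16Ink4a, had 0 to 4 counts per INK-ATTAC library and 0 to 2 per control library, too few to compare. Xist, which silences an X chromosome in female cells, was high in 4 INK-ATTAC and 4 control libraries and low in 4 INK-ATTAC and 3 control libraries.

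The first comparison asked which family transcripts the tissue held. Levels between genes were compared per length, as reads scaled to exon length and library size (RPKM). Bcl2l1 was the most abundant member and the main survival transcript, followed by Bax and Bad, while Bak1 was the least abundant. Bcl2l1 averaged 47.9 ± 3.56 RPKM in INK-ATTAC libraries (SD, n = 8) and 47.6 ± 3.56 RPKM in controls (SD, n = 7). It made up 74.8 ± 4.07% of the summed level of the 4 survival genes in INK-ATTAC libraries and 72.4 ± 2.47% in controls. Bax averaged 39.2 ± 2.91 RPKM in INK-ATTAC libraries and 37.7 ± 2.48 RPKM in controls, against 0.807 ± 0.224 RPKM and 0.886 ± 0.194 RPKM for Bak1 in the same groups, so the effector level was nearly all Bax. Bad, at 27.8 ± 1.48 RPKM in INK-ATTAC libraries and 27.5 ± 2.39 RPKM in controls, was the leading BH3-only transcript.

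Below these 3 genes came Mcl1, Bcl2, Bid, Bcl2l2 and Bcl2l11, with means over all 15 libraries of 10.5, 4.61, 3.46, 2.08 and 1.19 RPKM. Each gene stood above the next in all 15 libraries at 6 of the 8 steps of this order. Bcl2 exceeded Bid in 14 libraries and Bcl2l11 exceeded Bak1 in 13, so the members of these pairs were not fully separated. The order was unchanged with the length of the longest transcript in place of all exons, although that raised the mean of Bcl2l1 to 85.3 RPKM. Levels per length assume that reads cover all annotated exons, and the isoforms in use were not measured. They also assume that no reads come from overlapping genes on the opposite strand, a limit given below for Bak1, Bid, Bad and Bcl2.

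**Figure D1:**
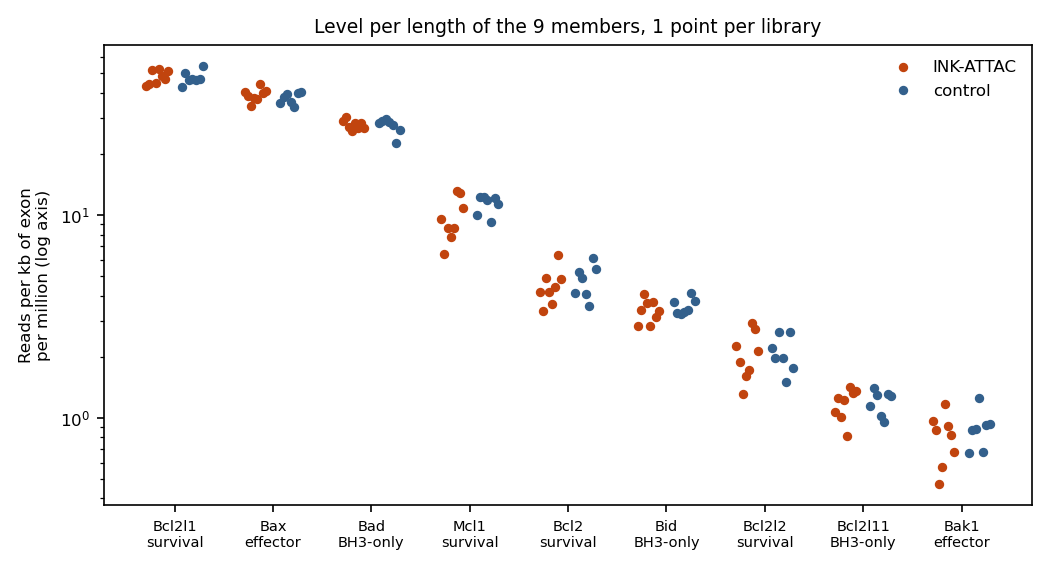
Level per length of each member in RPKM (log axis), 1 point per library, with INK-ATTAC libraries left of controls for each gene. Bcl2l1, Bax and Bad lie at 22.6 RPKM or above in every library, and Bcl2l11 and Bak1 lie between 0.471 and 1.41 RPKM, where their ranges overlap.

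The second comparison asked whether any member differed between INK-ATTAC and control libraries. None did by edgeR's quasi-likelihood test: 0 of the 9 had an adjusted p under 0.05, where 0% of the 17991 genes tested did, and 0 of the 9 had an unadjusted p under 0.05, where 4.14% of all genes did. DESeq2 also called 0 members, with 0 at an unadjusted p under 0.05, where 758 of the 17991 genes were. limma-voom with sample quality weights called 0. By it 1 member, Mcl1, had an unadjusted p under 0.05, where 1068 of the 17991 genes did. Fitted log2 fold changes, INK-ATTAC over control, ran from -0.21 for Mcl1 to 0.06 for Bax, with a median of -0.02 against -0.00097 over all genes tested. The INK-ATTAC and control ranges overlapped for all 9, where they were apart for 0.0222% of all genes.

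**Figure D2:**
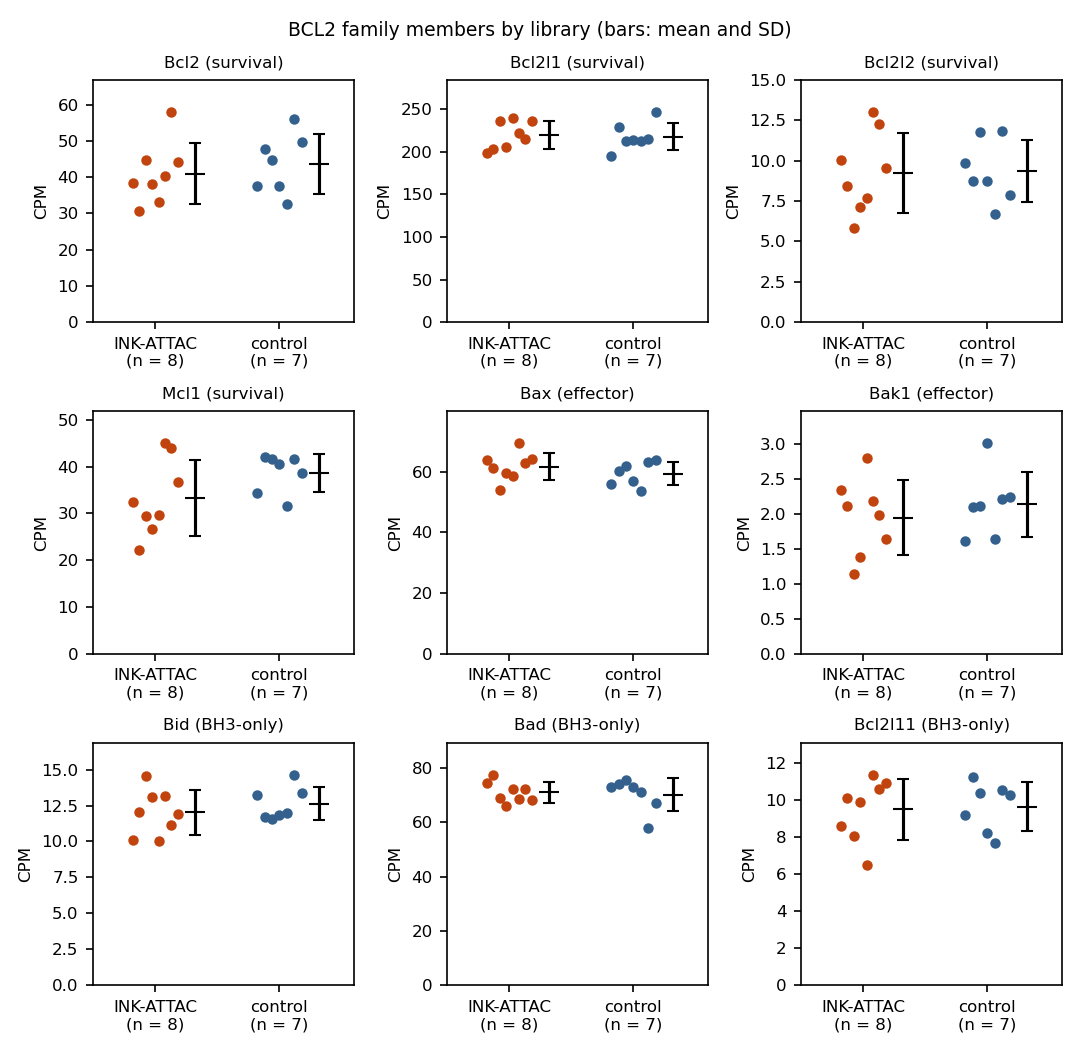
CPM of each member by library, INK-ATTAC (n = 8) left and control (n = 7) right, with the mean and SD beside the points. The groups overlap in every panel, and Mcl1 shows the widest INK-ATTAC spread relative to controls, at 22.0 to 45.0 CPM against 31.5 to 42.0 CPM.

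Among the survival genes, Mcl1 had the lowest p of the family. Mcl1 encodes a short-lived survival protein, and the gene spans chr3:95658788-95663176 (GRCm38, plus strand). Its lowest, median and highest values were 22.0, 31.0 and 45.0 CPM in INK-ATTAC libraries and 31.5, 40.5 and 42.0 CPM in controls. Of the 8 INK-ATTAC libraries, 4 lay below every control and 2 above every control. The mean was 33.3 CPM (SD 8.16) over the 8 INK-ATTAC libraries and 38.6 CPM (SD 4.12) over the 7 controls. The log2 fold change was -0.21 (SE 0.13, 95% interval -0.49 to 0.06, edgeR adjusted p = 1.00). In the authors' deposited table, which called 3 entries or 0.0207% of its 14491, Mcl1 had a log2 fold change of -0.27 with p = 0.0378 and an adjusted p of 0.763 from limma. When skeletal muscle marker level was added as a covariate, the edgeR log2 fold change of Mcl1 was -0.07 (SE 0.14, adjusted p = 0.926), and with lens marker level it was -0.12 (SE 0.13, adjusted p = 1.00). With rod marker level it was -0.19 (SE 0.14), and with Xist level it was -0.22 (SE 0.12).

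Bcl2, the founding survival gene of the family (chr1:106538178-106714274, minus strand), ranged as widely in both groups. It had a lowest, median and highest value of 30.8, 39.3 and 58.1 CPM in INK-ATTAC libraries and 32.6, 44.7 and 55.9 CPM in controls. 6 of the 8 INK-ATTAC libraries lay within the control range. The log2 fold change was -0.09 (SE 0.13, edgeR adjusted p = 1.00), and it turned to 0.14 (SE 0.11) with skeletal muscle level as a covariate.

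Bcl2l1 (chr2:152780668-152831728, minus strand), whose main product Bcl-xL is a survival protein, was among the steadiest members. Its lowest, median and highest values were 199, 219 and 239.8 CPM in INK-ATTAC libraries and 195, 214 and 248 CPM in controls, and all 8 INK-ATTAC libraries lay within the control range. The log2 fold change was 0.01 with a 95% interval of -0.12 to 0.14 (edgeR adjusted p = 1.00). Bcl2l2 (chr14:54883377-54888234, plus strand), which encodes Bcl-w, was low and variable. It had 5.83, 8.99 and 13.05 CPM in INK-ATTAC libraries and 6.67, 8.77 and 11.8 CPM in controls, again as the lowest, median and highest, and its log2 fold change was -0.02 with a 95% interval of -0.37 to 0.34.

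Of the effectors, Bax (chr7:45461697-45466898, minus strand) was abundant and steady. Its lowest, median and highest values were 54.0, 62.0 and 69.5 CPM in INK-ATTAC libraries and 53.6, 60.2 and 63.9 CPM in controls. The log2 fold change was 0.06 (95% interval -0.07 to 0.18, edgeR adjusted p = 1.00), and Bax was the 1 member whose sign held in every setting tried. Bak1 (chr17:27019810-27029009, minus strand) was near 2 CPM, with 1.13, 2.04 and 2.80 CPM in INK-ATTAC libraries and 1.61, 2.11 and 3.01 CPM in controls. Its log2 fold change was -0.13 with a 95% interval of -0.54 to 0.27, the widest of the family.

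Among the BH3-only genes, Bid (chr6:120891930-120916853, minus strand) links caspase 8 to the mitochondrion. Its lowest, median and highest values were 10.1, 12.0 and 14.5 CPM in INK-ATTAC libraries and 11.5, 12.0 and 14.7 CPM in controls, with 3 INK-ATTAC libraries below every control. The log2 fold change was -0.07 (SE 0.09, edgeR adjusted p = 1.00). Bad (chr19:6941861-6951899, plus strand), whose product is held inactive when phosphorylated by survival kinases, had 66.2, 70.7 and 77.7 CPM in INK-ATTAC libraries and 57.8, 72.9 and 75.7 CPM in controls. Its log2 fold change was 0.02 (95% interval -0.11 to 0.15). Bcl2l11 (chr2:128126038-128162547, plus strand) had 6.50, 9.98 and 11.4 CPM in INK-ATTAC libraries and 7.65, 10.2 and 11.3 CPM in controls, and its log2 fold change was -0.02 (95% interval -0.28 to 0.24). Bid and Bad share exon sequence with genes on the opposite strand, 17.7% of Bid with Bcl2l13 and 20.5% of Bad with Gpr137, and Bak1 shares 18.2% with Ggnbp1. No source used here gives the strand setting of the counting, so their reads cannot be told apart there. The same limit holds for Bcl2, which shares 6.09% with D630008O14Rik on the opposite strand, and for 7.35% of Bak1 with a second Ggnbp1 entry. Ggnbp1 had a mean of 399 counts per INK-ATTAC library and 353 per control, where Bak1 had 56 to 142 counts per library. In the same groups Bcl2l13 had 658.5 and 626, Gpr137 1675 and 1599, and D630008O14Rik 24.75 and 15.7. Bcl2l2 shares 13.3% of its exon length with Gm20521 on its own strand, which had a mean of 0 counts in either group. Bax shares 12.2% with Gm45808 on its own strand, a gene not among those counted.

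**Figure D3:**
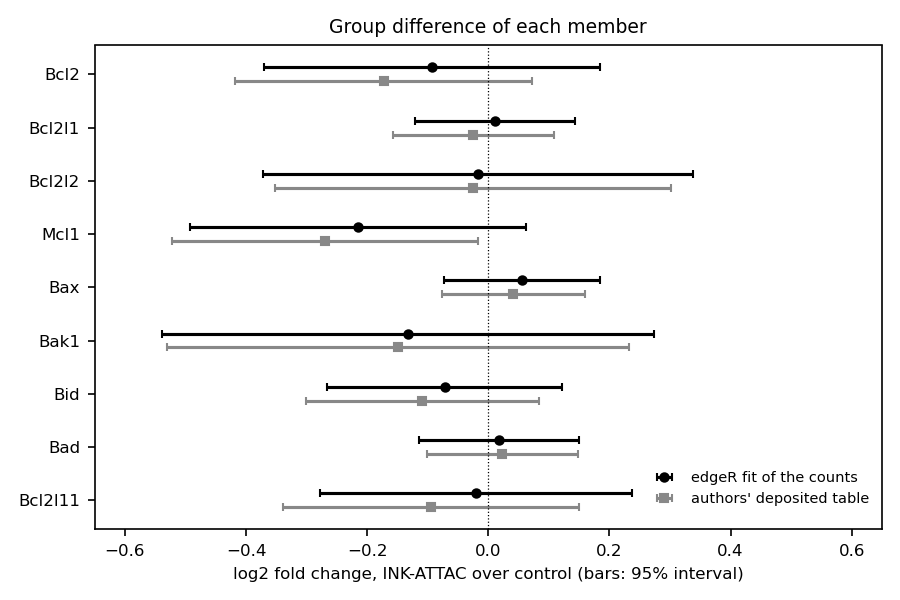
Log2 fold change of each member, INK-ATTAC over control, with 95% intervals, from the edgeR fit of the counts (black circles) and from the authors' deposited table (grey squares). All edgeR intervals include 0, and in the authors' deposited table the Mcl1 interval, -0.52 to -0.02, does not.

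The members differed in how much they varied between libraries of 1 group. The coefficient of variation within groups was 7.00% for Bax, 7.01% for Bad and 7.46% for Bcl2l1. Genes of similar level had medians of 10.9%, 10.7% and 10.5% for these 3, so at most 13.3% of such genes were as steady. Bcl2 varied by 19.7% and Mcl1 by 17.6%, and 89.7% and 84.2% of genes of similar level varied less. Bcl2l2 varied by 23.8%, against a median of 16.3%, while Bid (11.1%), Bcl2l11 (15.5%) and Bak1 (24.8%) were below the median of their peers. For Mcl1 the coefficient was 24.6% in INK-ATTAC libraries and 10.7% in controls, and this difference in spread was not tested. By Dixon's criterion no single library stood apart in any of 20 sets, the members and the Bax to Bcl2 ratio in each group.

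The third comparison set member levels beside the tissue makeup of each library, since dissection varied. Across the 15 libraries, 9 members were correlated with the mean log2 CPM of 5 marker lists (RPE, rod, skeletal muscle, endothelial and macrophage), 45 relations in all. Of these 45, Bcl2 against endothelial markers was the 1 relation past the threshold, with Pearson's r = 0.91 (100000 permutations, p = 2.0e-05, adjusted p = 9.0e-04) and Spearman's rho = 0.91 (permutation p = 3.0e-05, adjusted p = 0.00135). Without the 2 libraries farthest from the median marker level, INK-ATTAC 2 and control 6, r was 0.86. Within groups r was 0.92 in INK-ATTAC libraries and 0.95 in controls, and it was 0.90 and 0.95 among libraries of low and high Xist. Single markers gave r between 0.16 for Emcn and 0.92 for Tie1, with a median of 0.83 over the 10 genes. The relation was not particular to endothelial markers. When the pericyte and smooth muscle markers were added as a sixth list, after seeing the data, Bcl2 also passed against them with r = 0.88 and rho = 0.87 (permutation p = 3.0e-05 and 7.0e-05, adjusted over 54 relations p = 8.1e-04 and 0.00189). There r was 0.82 without INK-ATTAC 2 and control 5, 0.86 within INK-ATTAC libraries and 0.93 within controls, and the levels of the endothelial and the pericyte lists themselves moved together (r = 0.89). Pdgfrb, 1 of the 7 genes of the pericyte list, is also among the genes most like Bcl2 named below. The adjustment over 54 relations does not account for adding this list after seeing the data. Relations to the fibroblast list and the remaining marker lists were not computed. In bulk tissue, fewer cells of a type and less RNA per cell cannot be told apart.

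Endothelial marker level was alike in the groups, at 4.83 ± 0.39 log2 CPM (SD, n = 8) in INK-ATTAC libraries and 4.83 ± 0.46 log2 CPM (SD, n = 7) in controls. With this level as a covariate, chosen after seeing the data, the SE of the Bcl2 log2 fold change was 0.06, against 0.13 without it, and the fold change was -0.10 (edgeR adjusted p = 0.859). Among 9038 protein-coding genes whose mean log2 CPM reached 3, those most like Bcl2 over the 15 libraries were Mmrn2 (r = 0.95), Pdgfrb (0.95) and Podxl (0.95). Mmrn2 encodes an endothelial matrix protein, Pdgfrb a receptor of pericytes and Podxl a sialomucin of vascular endothelium and podocytes. Bcl2 against skeletal muscle markers gave r = -0.71 (rho = -0.66; permutation p = 0.00301 and 0.00907, adjusted p = 0.0677 and 0.135; r = -0.73 without the 2 farthest libraries), which did not pass over all libraries. As deviations from the group means it did, with r = -0.73 (rho = -0.73; permutation p = 0.00203 and 0.0027, adjusted p = 0.0304 and 0.0304).

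Mcl1 against RPE markers gave r = -0.66 (rho = -0.62; permutation p = 0.00733 and 0.0163, adjusted p = 0.0993 and 0.135; r = -0.597 without the 2 farthest libraries) and did not pass over all libraries. Taken as deviations from the group means it did, with r = -0.74 (permutation p = 0.00181, adjusted p = 0.0304). Single RPE markers gave r between -0.64 for Rlbp1 and 0.14 for Best1, with a median of -0.47 over the 11 genes, and the list gave -0.41 among libraries of low Xist and -0.81 among those of high Xist. Within groups r was -0.96 in INK-ATTAC libraries and -0.46 in controls, a difference that was not tested. RPE markers spanned a narrow range, 10.3 to 10.6 log2 CPM in INK-ATTAC libraries and 10.2 to 10.6 in controls, with means of 10.4 in each. INK-ATTAC 2 held the highest RPE level of its group and the lowest Mcl1, and INK-ATTAC 6 and 7 held the lowest RPE levels and the highest Mcl1. With RPE level as a covariate, also chosen after seeing the data, the Mcl1 log2 fold change was -0.26 (SE 0.10, edgeR adjusted p = 0.886). Other lists gave relations of similar size that also did not pass over all libraries. Mcl1 against the pericyte and smooth muscle list gave r = 0.67 (permutation p = 0.00621, adjusted over 54 relations p = 0.0792). There r was 0.49 without the 2 farthest libraries, 0.86 within INK-ATTAC libraries and 0.69 within controls. Against endothelial markers r was 0.61 (permutation p = 0.0157, adjusted p = 0.117), and 0.39 without the 2 farthest libraries. Within the same groups it was 0.74 and 0.75. Against skeletal muscle markers r was -0.60 (rho = -0.57, permutation p = 0.0182 and 0.0277, adjusted p = 0.117 and 0.135). There r was -0.60 without the 2 farthest libraries, -0.53 within INK-ATTAC libraries and -0.60 within controls. As deviations from the group means it was -0.49 (permutation p = 0.0663, adjusted p = 0.299). The genes most like Mcl1 were Rassf3 (r = 0.94), Bicc1 (0.92) and Otud7b (0.92).

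**Figure D4:**
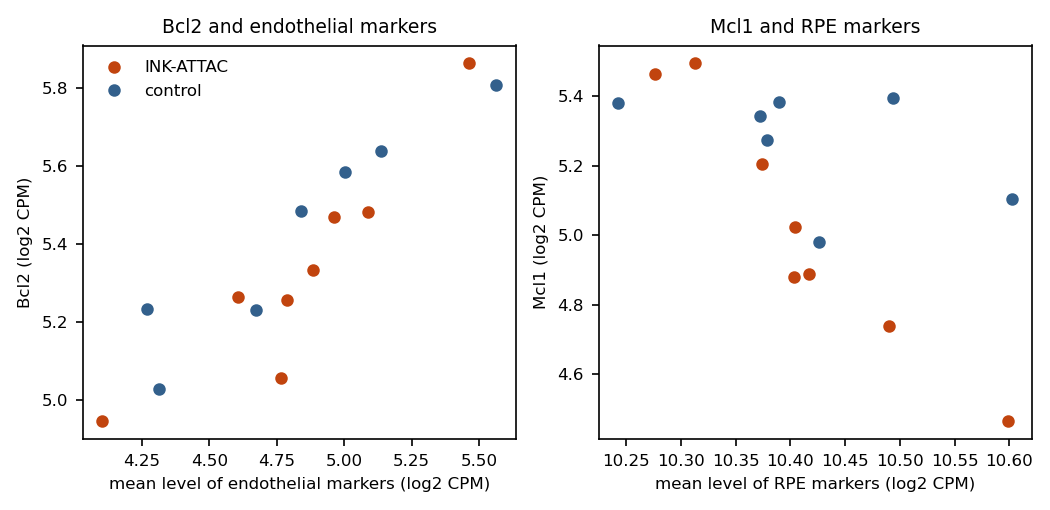
Left, Bcl2 level against the mean level of 10 endothelial markers; right, Mcl1 level against the mean level of 11 RPE markers, both in log2 CPM with 1 point per library. Bcl2 rises with endothelial level in both groups alike (r = 0.92 in INK-ATTAC libraries and 0.95 in controls), and the points of Mcl1 lie closer to a falling line in INK-ATTAC libraries (r = -0.96) than in controls (r = -0.46), a difference that was not tested.

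Mcl1 also split by Xist class, a division read from the data and not in the labels. Among libraries of low Xist it averaged 27.6 ± 4.42 CPM (SD, n = 4) in INK-ATTAC libraries and 39.3 ± 4.34 CPM (SD, n = 3) in controls, and the ranges, 22.0 to 32.5 and 34.3 to 42.0 CPM, did not overlap. The ranges were apart in this class for 1 of the 9 members and for 5.33% of the 17991 genes, so such a separation was not rare among so few libraries. In the high class they were apart for 0 of the 9 and for 2.88% of all genes. Among libraries of high Xist it averaged 38.9 ± 7.21 CPM (SD, n = 4) in INK-ATTAC libraries and 38.1 ± 4.52 CPM (SD, n = 4) in controls. With low Xist alone the log2 fold change was -0.51 (edgeR adjusted p = 0.974), and with high Xist alone it was 0.03 (adjusted p = 0.988). The difference between the classes, 0.54 (SE 0.21), did not pass the edgeR interaction test (adjusted p = 0.876). An unadjusted p under 0.05 was reached there by 1 of the 9 members and by 4.77% of all genes. Bcl2l2 pointed the same way, with log2 fold changes of -0.37 and 0.28 in the low and high classes, and did not pass either (edgeR adjusted p = 0.876). Tissue makeup also differed between these libraries. Lens marker level was 3.71, 1.78, 6.20 and 4.00 log2 CPM in INK-ATTAC 1 to 4 (low Xist). It was 1.16, -1.12, -1.36 and 3.41 in INK-ATTAC 5 to 8 (high Xist). Controls 1 to 3 (low Xist) had 1.59, -2.04 and 3.38. Controls 4 to 7 (high Xist) had -0.675, -0.61, 0.55 and -0.07. The part of lens or muscle in the split by Xist class was not tested.

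**Figure D5:**
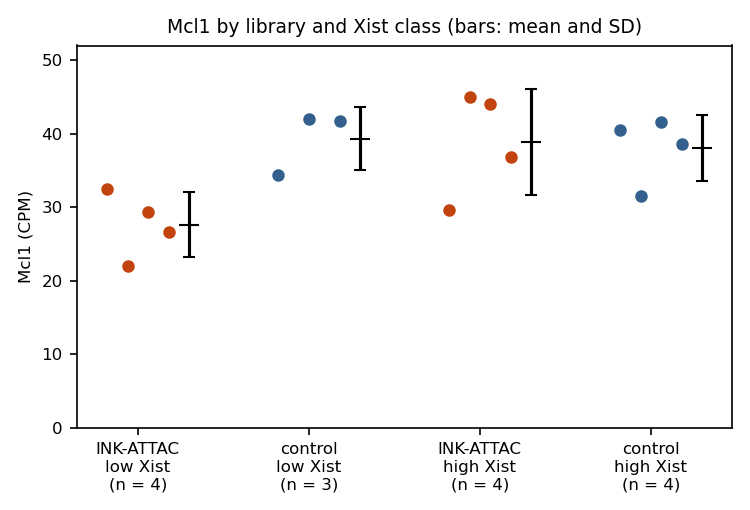
Mcl1 CPM by library, split by Xist class, INK-ATTAC left of control in each class, with mean and SD. In the low Xist class the INK-ATTAC libraries, at 22.0 to 32.5 CPM, lie below the controls, at 34.3 to 42.0 CPM, a separation that 5.33% of all genes show in this class, and in the high Xist class the groups overlap.

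The ratio of Bax to Bcl2 counts, a common description of the balance between effector and survival transcripts, ranged from 1.08 to 1.99 with a median of 1.61 in INK-ATTAC libraries and from 1.13 to 1.65 with a median of 1.38 in controls. Its log2 averaged 0.61 ± 0.29 in INK-ATTAC libraries (SD, n = 8) and 0.46 ± 0.19 in controls (SD, n = 7), a difference of 0.15 within the spread of either group. The size of this count ratio is not corrected for exon length, 1576 bases in Bax and 9157 in Bcl2. Per length, the means over all 15 libraries were 38.5 RPKM for Bax and 4.61 RPKM for Bcl2. INK-ATTAC 7 had the lowest ratio of its group and also its highest Bcl2 and endothelial levels. Summed per length, the 4 survival genes came to 64.2 ± 5.39 RPKM in INK-ATTAC libraries and 65.7 ± 4.79 RPKM in controls, the 2 effectors to 40.0 ± 3.00 RPKM and 38.6 ± 2.54 RPKM, and the 3 BH3-only genes to 32.4 ± 1.29 RPKM and 32.2 ± 2.07 RPKM in the same groups.

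The other genes of the family were read beside the members. Of 17 listed, 15 were tested, 6 with a higher and 9 with a lower fitted level in INK-ATTAC libraries and 0 called, with a median log2 fold change of -0.07. Pmaip1, which encodes the BH3-only protein Noxa that binds Mcl1, had the lowest p at -0.46 (SE 0.15, edgeR adjusted p = 1.00). Its mean was 1.68 CPM (SD 0.323) in the 8 INK-ATTAC libraries and 2.31 CPM (SD 0.282) in the 7 controls. Bcl2a1d, a survival gene of blood cells, was at -0.30 (edgeR adjusted p = 1.00), but its near-identical copies Bcl2a1a (-0.19) and Bcl2a1b (-0.07) can share its reads, so its value is uncertain. Bcl2l12 was at 0.23. Bbc3, which encodes Puma, was at 0.05 (SE 0.33), and Bok, an effector-like gene, at -0.08. Bcl2l10 had 8 counts or fewer in any library and was not tested.

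Around the family, 0 genes were called in any list. The list of mitochondrial outer membrane partners had 5 of 11 genes higher and 6 lower with a median log2 fold change of -0.0038, and its extremes were -0.05 and 0.22, the higher being Bag1, a chaperone regulator that binds Bcl2. The apoptosome and caspase list had 6 of 15 higher and 9 lower with a median of -0.0074. In it Endog, a mitochondrial nuclease, was at 0.50 (SE 0.26), Birc5, the inhibitor survivin, at 0.42 (SE 0.23) and Xiap, which blocks caspases, at -0.17 (SE 0.08). The death receptor list had 4 of 11 higher and 7 lower with a median of -0.03. Casp8, which cuts Bid and was named for that role after its value was seen, was at -0.03 (SE 0.08), its brake Cflar at -0.10 (SE 0.06) and the death receptor gene Tnfrsf10b at -0.18 (SE 0.08). The upstream regulators had 6 of 28 higher and 22 lower with a median of -0.05, where 50.2% of all genes tested were lower. There Pim1, a survival kinase that phosphorylates Bad, was at -0.26 (SE 0.10) and Fbxw7, part of a ligase that marks Mcl1 for destruction, at -0.14 (SE 0.06). Each gene named here had an adjusted p of 1.00 with edgeR.

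Promoter sequence was compared for features the members share. RefSeq (GRCm38.p6) gave 13 promoter windows for the 9 genes, each of 300 bases around a start site and mostly before it. Their ratio of observed to expected CpG ranged from 0.0558 to 1.07 with a median of 0.75, against a median of 0.384 over all 32851 promoters in the table. GC content ran from 49.3% to 76.0% in these windows, against a median of 52.7% over all promoters. The motifs searched, on both strands, were GGGCGG (the GC box), CCAAT (the CCAAT box), TATAAA (the TATA box), CACGTG (an E-box), TGACGTCA (the full cAMP response element), GTAAACA (a forkhead site) and TTCNNNGAA (a STAT site). The GC box was in 8 of the 13 windows, where 35.7% of all promoters hold it. These windows belong to Bcl2, Bcl2l2, Mcl1, Bax, Bid, Bad and Bcl2l11. The TATA box was in 0, where 13.6% of all promoters hold it. The CCAAT box was in 3 (37.4% of all promoters), the E-box in 1, a Bax window (7.15%), the cAMP response element in 0 (1.79%) and the STAT site in 0 (8.30%). The forkhead site was in 1, a Bcl2l11 window, where 3.65% of all promoters hold it. These shares were not adjusted for GC content, and some of the 13 windows came from the same gene. The promoters of Mcl1, the member of lowest p, and of Bcl2l11, the one with the forkhead match, are shown, with matches to the GC box, CCAAT box, E-box and forkhead motifs on either strand in capitals. A match describes the letters and shows no binding.
Mcl1 (chr3:95658471-95658770, plus strand): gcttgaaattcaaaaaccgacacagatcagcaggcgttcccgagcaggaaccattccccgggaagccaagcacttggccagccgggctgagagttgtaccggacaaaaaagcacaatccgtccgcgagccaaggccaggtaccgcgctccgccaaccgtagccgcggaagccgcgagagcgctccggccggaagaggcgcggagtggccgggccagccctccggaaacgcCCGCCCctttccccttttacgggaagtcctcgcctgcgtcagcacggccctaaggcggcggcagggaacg
Bcl2l11 (chr2:128125788-128126087, plus strand): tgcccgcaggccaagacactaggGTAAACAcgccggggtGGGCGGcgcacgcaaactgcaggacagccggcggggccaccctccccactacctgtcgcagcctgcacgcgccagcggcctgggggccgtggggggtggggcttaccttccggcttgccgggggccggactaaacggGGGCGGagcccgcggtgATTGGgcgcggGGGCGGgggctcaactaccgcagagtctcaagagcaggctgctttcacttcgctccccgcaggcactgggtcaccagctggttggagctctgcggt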

How the data were processed

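RNA-seq libraries of mouse RPE/choroid complex (8 INK-ATTAC, 7 control) were read from a gene table of raw read counts deposited by the authors, 1 column per library. A second table by the authors holds log2 CPM values per library, log2 fold changes with confidence limits, and p-values with adjusted p-values, per the file headers. Its direction was read from its per-library columns as INK-ATTAC over control. Per the submitters' processing notes, bcl2fastq, DRAGEN, edgeR, limma and the GRCm38 build were used. Versions, roles, the counting program and its strand setting are not stated there. SMARTer amplification of cDNA is stated in the labels.

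From 40757 entries, 276 identical repeats were collapsed, which left 40481 genes. Genes passing edgeR's filterByExpr (17991) were scaled by TMM and tested with edgeR 4.0.16 (glmQLFit and glmQLFTest, group as the only term) in R 4.3.3; p-values were adjusted by Benjamini-Hochberg across the genes tested, and genes under 0.05 were called. Fold changes are INK-ATTAC over control. DESeq2 1.42.0 and limma 3.58.1 served as alternatives, beside other scalings and filters, marker covariates, Xist classes, a replicate block and leaving out each library. Depth ran from 39121503 to 65065950 counts, so Bak1, the lowest member, still had 56 to 142 counts per library. On simulated counts for this comparison over 17991 genes, 30% of genes changed by 0.5 on the log2 scale were recovered, 64% of those changed by 1, 76% at 1.5 and 94% at 2, with 7 unchanged genes called.

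RPKM used the union of exons in GENCODE M21, and promoters came from RefSeq on GRCm38.p6. All 9 members are named, with up to 4 genes of lowest p from each further list. Any gene of the wider family could also be named. The members and lists were chosen with earlier results of these data known. No 2 libraries of a group agreed within counting noise, so all 15 were counted.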

Additional observations from a re-analysis of the deposited data

How the results depend on the processing

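In 29 settings beside the reported fit, 0 of the 9 members had an adjusted p under 0.05, and their lowest adjusted p was 0.71. Mcl1 was the only member with an unadjusted p under 0.05 in any of them. Its edgeR p was 0.0153 with RPE level as a covariate and 0.0375 with endothelial level. There 990 and 1080 of 17991 genes were under 0.05. Its edgeR p was 0.00406 with low Xist alone (909 of 18141 genes under 0.05). It was 0.0327 without INK-ATTAC 6 (664 of 17881) and 0.039 without INK-ATTAC 7 (926 of 17880). Over all genes edgeR called 0, DESeq2 called 6, and limma-voom, weighted by sample quality, called 2. Leaving out 1 library at a time kept the count of all genes called and of members called at 0. Over these fits the log2 fold change ran from -0.18 to -0.02 for Bcl2, -0.024 to 0.0436 for Bcl2l1, -0.1041 to 0.0577 for Bcl2l2, -0.29 to -0.16 for Mcl1, 0.02 to 0.08 for Bax, -0.24 to -0.03 for Bak1, -0.12 to -0.03 for Bid, -0.0244 to 0.036 for Bad and -0.0776 to 0.0324 for Bcl2l11. The difference in the log2 ratio of Bax to Bcl2 ran from 0.10 to 0.22.

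Signs turned only for fold changes that were not called, and the cause was not tested. With skeletal muscle level as a covariate Bcl2 was at 0.14, Bcl2l2 at 0.0025, Bad at -0.0135 and Bcl2l11 at 0.0608. With lens level as a covariate Bcl2l2 was at 0.0528, Bak1 at 0.0082 and Bcl2l11 at 0.0219. Among libraries of low Xist, Bcl2l1 was at -0.0059, Bid at 0.035 and Bad at -0.0452, and among those of high Xist, Bcl2l2 was at 0.27, Mcl1 at 0.0256 and Bcl2l11 at 0.098. With limma-voom and quality weights Bcl2l1 was at -0.0229. As deviations from group means, 3 of the 45 marker relations passed by Pearson's r (Bcl2 with endothelial and with skeletal muscle markers, Mcl1 with RPE markers). By Spearman's rho Bcl2l1 with skeletal muscle markers passed as well (rho = -0.79, permutation p = 0.00077, adjusted p = 0.0173). Its Pearson's r was -0.66 (permutation p = 0.00827, adjusted p = 0.062), and -0.85 without the 2 farthest libraries. Over all libraries that relation did not pass (r = -0.53, permutation p = 0.0409, adjusted p = 0.204). There 1 of the 45 relations passed, and 2 of 54 with the pericyte and smooth muscle list added.

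Replicate numbers 1 to 7 occur in both groups, and the labels do not say whether they pair the libraries. The deviations of same-numbered libraries correlated above 0.1 in 4 of 7 pairs, with a range from -0.10 to 0.29. That cutoff had no reference to set it against. Same-numbered libraries were of the same Xist class at every number except 4. Whether the numbers pair the libraries was not settled, and the main fit held no block. The fit with a replicate block called 0 genes and put Bcl2l1 at -0.0043, and 1 of the 7 controls correlated best with its own number.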
